A study of Mus musculus with 12 samples.

Results

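Of 25697 probes on a mouse expression beadchip, 240 (0.934%) were detected on all 3 arrays of cultures grown with growth factors only and on none of the 3 arrays of cultures that also received valproic acid and lithium together. Detection meant a deposited p-value under 0.05, and loss of detection a value of 0.05 or more. The 240 member probes are 2.5% of the 9607 probes detected on all growth-factor-only arrays, and they represent 221 genes or array targets. They were selected on their deposited detection p-values in these 2 groups, so their levels with growth factors only and with the combination are given as a description. Their levels under each agent alone were not used in the choice.

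Total RNA was measured in 12 cultures, 3 in each of 4 groups, and the design text describes the triplicates as biologically independent. All groups began as bone marrow stem and progenitor cells (HSPCs) from C57Bl/6 mice, isolated by an L-S+K+ phenotype, that is, Sca-1 and Kit on the surface and no lineage markers. The labels name no engineered allele. Every culture, controls included, ran for 7 days with granulocyte/macrophage colony-stimulating factor (GM-CSF), stem cell factor and fetal calf serum in its liquid medium. One group received nothing further, another 5 mM lithium chloride, another 1 mM valproic acid, and the last both agents at these doses. A level below is a normalized log2 intensity, in which a step of 1 is a doubling, and the ± after a mean is the SD of 3 arrays. Levels of different probes are not compared as amounts of RNA, since each probe has its own brightness.

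GM-CSF drives bone marrow progenitors toward granulocytes, macrophages and dendritic-like cells, which switch on proteases, chemokines, pattern and Fc receptors and antigen-presenting molecules as they mature. Valproic acid inhibits histone deacetylases, enzymes that remove acetyl groups from histones. Lithium inhibits glycogen synthase kinase-3, a kinase that marks beta-catenin for destruction, and inositol monophosphatase.

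The start regions of 4 member genes are shown because they belong to the secreted proteases and inflammatory mediators described below. Mmp12 and Mmp13 are neighbouring genes for matrix metalloproteinases, Cxcl2 encodes a neutrophil-attracting chemokine, and Il1b encodes interleukin-1 beta. Each line gives the 250 bases before an annotated transcription start, 5′ to 3′ along the gene's strand, from RefSeq on build GRCm38.p6. Capitals mark the AP-1 letters TGANTCA, the NF-kappaB letters GGGANTTTC or the TATA box, spelled TATAAA, all searched on both strands. Mmp12 is read at the second of its 2 listed start sites (chr9:7347124-7347373, plus strand), Mmp13 at chr9:7272264-7272513 (plus strand), Cxcl2 at chr5:90903649-90903898 (plus strand) and Il1b at chr2:129371140-129371389 (minus strand).
Mmp12: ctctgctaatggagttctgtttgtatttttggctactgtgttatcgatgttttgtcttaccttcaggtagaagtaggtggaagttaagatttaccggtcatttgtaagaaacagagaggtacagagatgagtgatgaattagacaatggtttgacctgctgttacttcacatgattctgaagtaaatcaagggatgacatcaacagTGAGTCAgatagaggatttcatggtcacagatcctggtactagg
Mmp13: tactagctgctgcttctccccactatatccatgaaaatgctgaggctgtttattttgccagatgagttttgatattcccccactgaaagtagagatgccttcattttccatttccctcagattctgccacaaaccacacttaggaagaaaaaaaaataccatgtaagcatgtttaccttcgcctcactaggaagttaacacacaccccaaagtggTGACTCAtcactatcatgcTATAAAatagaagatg
Cxcl2: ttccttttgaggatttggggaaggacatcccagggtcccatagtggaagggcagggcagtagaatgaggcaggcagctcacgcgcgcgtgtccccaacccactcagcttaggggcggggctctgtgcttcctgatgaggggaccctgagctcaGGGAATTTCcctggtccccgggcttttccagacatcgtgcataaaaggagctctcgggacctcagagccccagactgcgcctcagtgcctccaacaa
Il1b: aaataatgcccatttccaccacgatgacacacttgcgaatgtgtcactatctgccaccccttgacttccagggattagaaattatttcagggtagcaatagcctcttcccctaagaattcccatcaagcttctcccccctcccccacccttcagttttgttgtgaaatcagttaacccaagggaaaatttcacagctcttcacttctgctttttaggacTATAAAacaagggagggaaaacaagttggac
The AP-1 letters begin at base -44 in Mmp12 and at base -35 in Mmp13, counted from the start site, the NF-kappaB letters at base -97 in Cxcl2, and the TATA box at base -31 in Il1b and -16 in Mmp13. The first Mmp12 start site, not printed, had no AP-1 letters, and the PU.1 letters given below began there at base -88. TATAAA also began at base 5 of the second Mmp12 start site, beyond the printed bases.

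RefSeq listed 209 start regions for 164 of the member genes, and 5 motifs were counted in the window from 250 bases before to 50 bases after the start. The AP-1 letters were in 30 of the 209 regions (14.4%), against 7.81% of all 32851 listed regions and 5.3% of the 7375 regions of genes detected on all growth-factor-only arrays. A TATA box was in 13.9% of the members' regions, 13.6% of all regions and 7.17% of those of the detected genes. The PU.1 letters GAGGAAGT were in 4.78%, 3.2% and 3.31%, the NF-kappaB letters in 2.39%, 1.11% and 1.06%, and the MITF and TFE letters TCACGTG in 0.957%, 3.77% and 6.13%, in the same order. None of the 5 motifs contains another, and regions of 1 gene can overlap. A match describes the letters only, and binding was not measured.

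Across the 12 arrays, 42.3% to 46.8% of probes were detected, and median intensities ran from 96.3 to 142. Over 9800 probes detected nowhere, 8 arrays correlated with one another at 0.485 to 0.569. The other 4 correlated at 0.123 to 0.193 with one another and at 0.121 to 0.209 with those 8, so that correlation does not join them into a set of their own. These 4 arrays (growth factors only 1, valproic acid 1, combination 2 and combination 3) share a chip in the deposited profile's header, and no lithium array is among them. Below they are called the set of 4. Median differences between growth factors only and the combination were 2.13 in the set of 8 and 2.17 in the set of 4, where the rule fixes the direction within either set. The chip's part in how many probes met the rule was not tested.

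Macrophage and dendritic cell marker sums followed the order of the members, and those of other cell types did not all do so. The summed background-corrected intensity of 12 macrophage genes ran from 19186 to 21809 on the growth-factor-only arrays, 12657 to 16790 with lithium, 3331 to 6773 with valproic acid and 1890 to 3753 with the combination. C1qa, C1qb, C1qc, Cd163 and Msr1 were detected on no array, while 6, 7, 5 and 5 of the 12 genes were detected on every array of these groups in turn. Within this list the means of Cd68, Mertk and Mrc1 fell in the members' order. Those of Adgre1, Csf1r, Fcgr1 and Marco were no lower with lithium than with growth factors only. Fcgr1 had means of 7.25, 7.36, 7.33 and 6.74 in these groups, on the normalized log2 scale. The 10 dendritic cell genes summed to 36854 to 43214, 19521 to 28059, 3734 to 4581 and 806 to 911 in the same order, with 6, 6, 4 and 2 detected throughout, and Flt3 and Zbtb46 detected on no array.
The sums of the 12 neutrophil genes did not follow that order. They were 111106 to 125832 with growth factors only, 145746 to 156052 with lithium, 138212 to 151593 with valproic acid and 133482 to 142098 with the combination. Within that list the genes differed in direction from growth factors only to the combination, on the normalized log2 scale. Camp (12.07 to 9.03), Lcn2 (14.44 to 12.45), Ltf (14.59 to 11.77), Ngp (14.12 to 11.71) and Mmp9 (10.39 to 5.26), products of later granules, had lower means. Mpo (10.54 to 14.49), ELA2 (10.51 to 14.59), Ctsg (10.73 to 14.31) and Prtn3 (11.21 to 14.25), products of the early azurophil granules, had higher ones.
The 9 erythroid genes summed to 142 to 195, 383 to 491, 1354 to 1834 and 2231 to 3306 across growth factors only, lithium, valproic acid and the combination, the reverse of the members' order, with Alas2 detected on no array. The 8 eosinophil genes summed to 3979 to 5857, 2492 to 2776, 5033 to 5289 and 1421 to 3970, in no such order. The 9 stem and progenitor genes on the array summed to 1798 to 2142, 1029 to 1300, 3009 to 3365 and 2604 to 3314. Of these, 4 were detected on every growth-factor-only array and 6 on every combination array, while Slamf1 was detected on no array. In these bulk cultures fewer cells of a type and less RNA per cell cannot be told apart, and the part of the cell mixture in the results on the members was not tested. A single member each sits on the macrophage (Mertk), neutrophil (Mmp8), dendritic cell (Ciita) and T and NK cell (Cd3d) marker lists.

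Taken as a group, the members stood between the growth-factor-only and combination levels under either agent alone, closer to growth factors only with lithium and closer to the combination with valproic acid. Since the rule chose probes detected with growth factors only and lost with the combination, standing between these levels follows largely from the choice. The median over the 240 probes lay between 6.92 and 7.01 on the growth-factor-only arrays, 5.92 and 6.25 on the lithium arrays, 5.04 and 5.12 on the valproic acid arrays and 4.72 and 4.81 on the combination arrays. The median over all 12907 tested probes was 7.51 on every array, as quantile normalization sets it. Relative to growth factors only, the members' median change was -0.80 with lithium, -1.83 with valproic acid and -2.15 with the combination, against 0.03, 0.05 and 0.06 over all tested probes. Nothing is read from that contrast, since the members were chosen on these groups. On the valproic acid and combination arrays the medians lay below the lowest signal among detected probes, 5.22 to 5.37. The changes there, and how close valproic acid stood to the combination, thus rest on undetected probes and are not measured sizes.

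**Figure D1:**
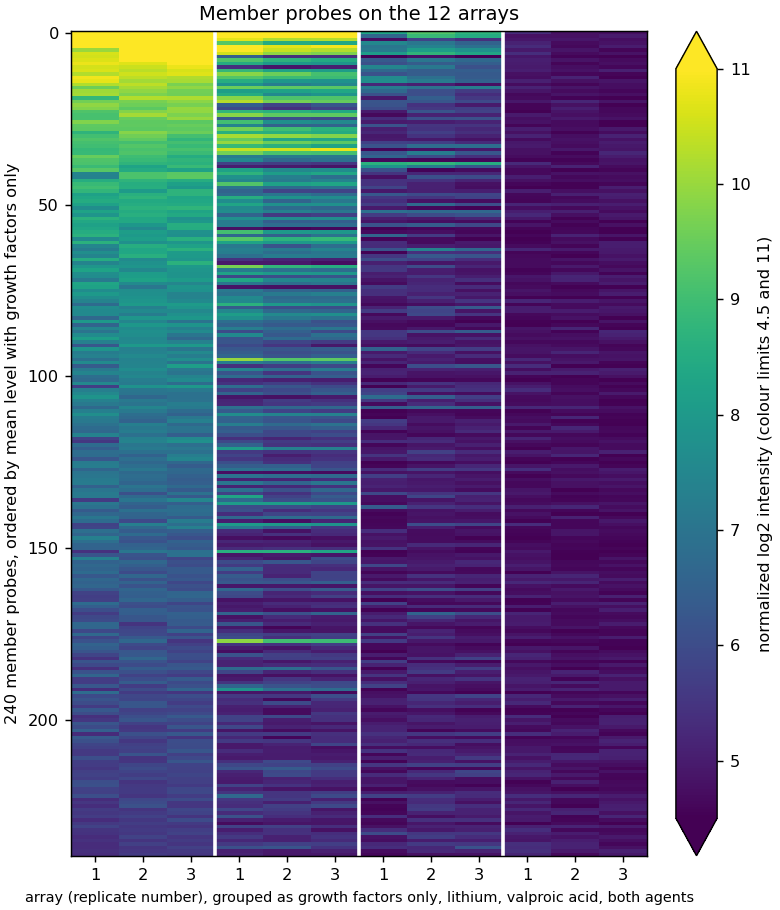
Normalized log2 intensity of the 240 member probes (rows, ordered by mean level with growth factors only) on the 12 arrays (columns, 3 per group, white lines between groups). The growth-factor-only and combination columns differ throughout because they chose the rows; lithium keeps many rows bright, and valproic acid keeps 45 detected on all of its arrays.

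All 3 valproic acid arrays lay below all 3 growth-factor-only arrays at 216 members and above them at 0, where 15.9% and 19.5% of all tested probes did so. All 3 lithium arrays lay below all growth-factor-only arrays at 143 members and above them at 12, against 16.4% and 16.3%. Since the members were chosen for being detected with growth factors only, nothing is read from these counts. Every member also passed the low-value filter of 3 detected arrays by construction, and 32 passed it through the growth-factor-only arrays alone.

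The loss under the combination has only a lower bound, because a probe that was not detected has no measured level. Each bound sets the growth-factor-only mean against the mean, per array, of the lowest signal among detected probes or the probe's own signal where that was higher, all on the normalized log2 scale. The bounds had a median of at least 3.1-fold, from at least 1.16-fold to at least 292-fold. They reached 10-fold at 44 members and 50-fold at 9. The brightest member, Stfa2, had a growth-factor-only mean of 13.46, and the dimmest had 5.49, where the median of the 9607 probes detected with growth factors only was 8.42.

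Detection under the single agents separated them further. Of the 240 members, 143 (59.6%) were detected on every lithium array and 48 (20%) on none, while 45 (18.8%) were detected on every valproic acid array and 105 (43.8%) on none. Among all probes detected on the growth-factor-only arrays, 1.07% were detected on no lithium array and 1.48% on no valproic acid array, while 95.9% and 93.3% were detected on every one. Per array, 160 to 176 members were detected with lithium and 66 to 97 with valproic acid.

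**Figure D2:**
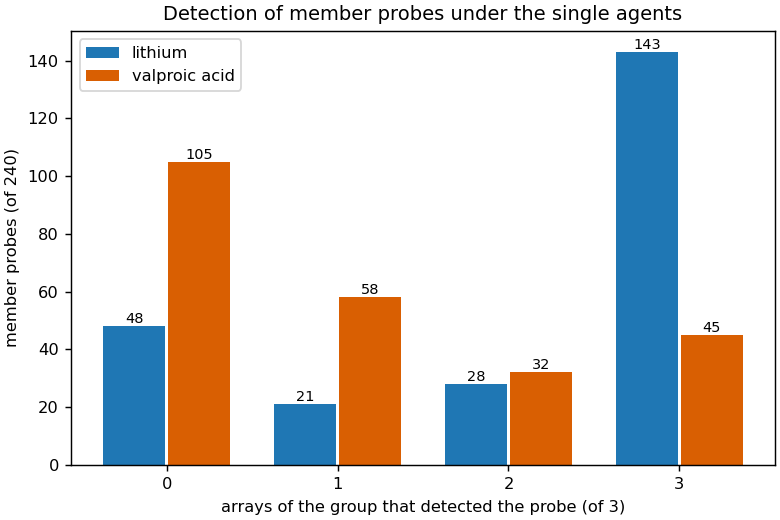
Number of member probes (of 240) by how many of a group's 3 arrays detected them, for lithium and for valproic acid alone. The valproic acid bars are tallest at 0 arrays (105) and the lithium bars at 3 arrays (143).

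Single probes followed several detection patterns. Detection remained complete with lithium and was lost on all arrays with valproic acid at 51 members, the largest of the 16 detection patterns. At 39 members it was complete with either agent alone, so that these were lost on all arrays only where both were present. Either agent alone was enough to remove detection from every array at 32 members. The pattern opposite to the first, complete with valproic acid and lost on all arrays with lithium, was seen at 4 members: Retnlg, Thbs1, Aldh3a1 and Prag1. The other 114 members were detected on 1 or 2 arrays of at least 1 single-agent group.

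The comparison of valproic acid with lithium is the only contrast between groups that the choice of members did not use, and it was tested with limma over all 12907 probes. At an adjusted p under 0.05, valproic acid was lower than lithium at 118 members (49.2%) and higher at 4 (1.67%), where 6.79% of all tested probes were lower and 7.69% higher. The median difference was -0.82 over the members and 0.03 over all tested probes. All valproic acid arrays lay below all lithium arrays at 143 members and above them at 7, with overlap at 90; the shares over all tested probes were 16.7% below and 21.7% above. With the 2 sets of arrays as a block, 131 members were lower and 4 higher, and with the set of 8 alone 132 were lower and 4 higher. These p-values rest on 1 spread between cultures per probe, pooled over all 4 groups, including the groups that chose the members. With the valproic acid and lithium arrays alone, 116 members were lower and 4 higher. Where no array of 1 agent detected a probe, its difference is given as a bound in fold, made in the same way as above, with the adjusted p of the fit. Some differences below rest in part on undetected arrays. Only 1 valproic acid array detected the named probes of Lyz1, Ccl5, Ccl7, Lilra6, Lilrb4a, Clec4a1, Ciita, Cd86, Relb and Fstl1, and 2 detected those of Mmp13, Cxcl2, Csf1, Tnfrsf9, Klf4, Tcf7l2, Ctsk and Nr1h3.

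Calls were more frequent among members with a high mean level over all arrays. Of the 120 members brighter by that mean, 96 were lower with valproic acid than with lithium, with a median difference of -1.93. Of the 120 dimmer members, 22 were lower, with a median difference of -0.30. The mean that split them includes the lithium and valproic acid levels being compared, so the split is not independent of the calls. A probe near the detection limit with both agents can show no difference.

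**Figure D3:**
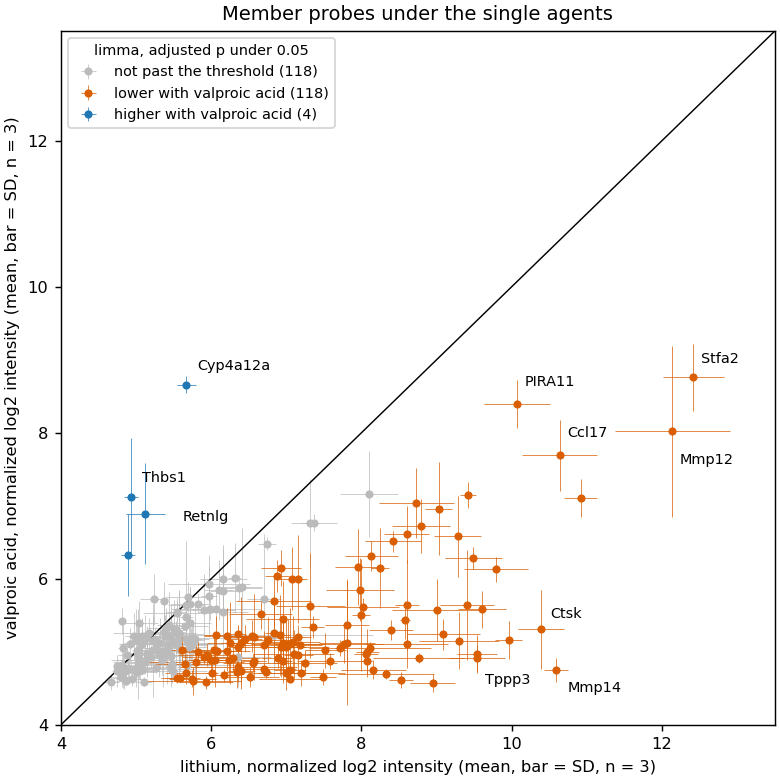
Mean normalized log2 intensity of each member with lithium (horizontal) and with valproic acid (vertical), with bars for the SD of 3 arrays and a line of equality. The 118 probes past the threshold with valproic acid lower lie below the line, and 4 lie above it.

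Secreted and membrane proteases that cut the extracellular matrix were among the members, and Mmp12 was among the 12 brightest. Of 17 genes on a list of matrix proteases and inhibitors that were detected with growth factors only, 6 were members: Mmp8, Mmp12, Mmp13, Mmp14, Thbs1 and Timp1. Over all genes detected with growth factors only, 221 of 7315 were members. Because the gene lists were chosen with earlier results of these data known, nothing is read from their member counts, here and below. Mmp12, the macrophage elastase, had levels of 11.74, 13.03 and 12.62 with growth factors only, 13, 11.56 and 11.85 with lithium, 6.68, 8.87 and 8.49 with valproic acid and 4.78, 4.80 and 4.98 with the combination. The lithium and growth-factor-only arrays overlapped, the valproic acid arrays lay below both, and the combination arrays were at the floor. Valproic acid minus lithium was -4.12 (SE 0.53, adjusted p = 0.000226), and the loss under the combination was at least 146-fold.

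Mmp14, a membrane-bound metalloproteinase that activates other proteases, had the largest bound on a difference between the agents. Its levels were 8.86, 9.13 and 9.10 with growth factors only, 10.46, 10.54 and 10.78 with lithium, 4.58, 4.77 and 4.91 with valproic acid and 4.80, 4.93 and 4.87 with the combination. Lithium exceeded growth factors only on every array, while neither the valproic acid nor the combination arrays detected it. Valproic acid was at least 39.1-fold below lithium (adjusted p = 2.32e-09, limma).

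Mmp13, a collagenase, had levels of 9.08, 9.05 and 9.07 with growth factors only, 9.96, 9.54 and 9.34 with lithium, 5.75, 5.70 and 5.29 with valproic acid and 4.92, 4.76 and 4.99 with the combination. Every lithium array was above every growth-factor-only array, and the difference between the agents was -4.03 (SE 0.20, adjusted p = 2.13e-07). Mmp8, the collagenase stored in neutrophil granules, had means of 8.32 ± 0.37 with growth factors only, 5.97 ± 0.55 with lithium and 5.93 ± 0.25 with valproic acid. The single agents overlapped at Mmp8, and their difference of -0.05 did not pass the test (adjusted p = 0.932). Timp1, an inhibitor of these proteases, was near the detection limit throughout, with a growth-factor-only mean of 5.89 ± 0.30. On the whole list, 12 of 25 tested probes were lower with valproic acid than with lithium and 3 were higher, with a median difference of -0.69.

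**Figure D4:**
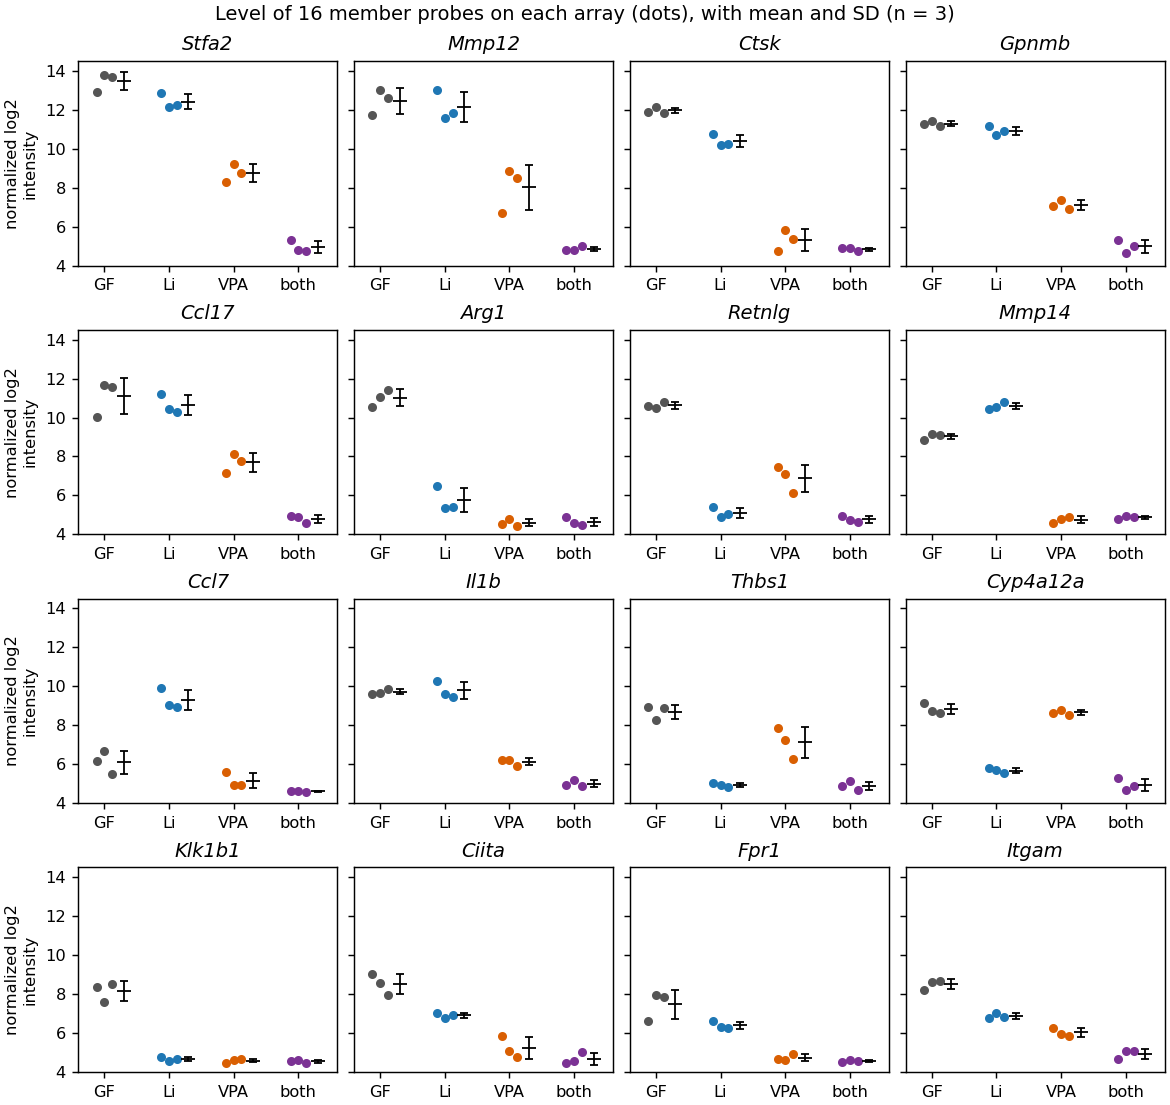
Normalized log2 intensity of 16 member probes on each array, by group (GF, growth factors only; Li, lithium; VPA, valproic acid; both, the combination), with the mean and SD of 3 arrays in black. Mmp14 and Ccl7 are highest with lithium, Cyp4a12a is near its growth-factor-only level with valproic acid, and all 16 are low with both agents.

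Proteins of neutrophil granules and of the myeloid cytosol gave 6 members out of 29 list genes detected with growth factors only. Stfa2, a stefin that inhibits cysteine proteases, was the brightest member, with levels of 12.92, 13.79 and 13.68 with growth factors only, 12.87, 12.12 and 12.26 with lithium, 8.31, 9.23 and 8.73 with valproic acid and 5.31, 4.80 and 4.73 with the combination. The groups did not overlap, and the level stepped down from growth factors only to lithium, to valproic acid and to the combination. Valproic acid minus lithium was -3.66 (SE 0.31, adjusted p = 9.95e-06), and the loss under the combination was at least 292-fold. Stfa3, a related stefin, had means of 8.25 ± 0.28, 6.70 ± 0.43 and 4.76 ± 0.09 with growth factors only, lithium and valproic acid, and was detected on no valproic acid array. The stefins and the lysozyme Lyz1 belong to families of near-identical copies, so their probes may read more than 1 gene and the assignment is uncertain.

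Lyz1, which cuts bacterial cell walls, had 3 probes on the array that disagreed. Its brighter member probe had means of 9.09 ± 0.49 with lithium and 5.24 ± 0.21 with valproic acid, a difference of -3.85 (SE 0.23, adjusted p = 6.5e-07), and its other member probe was at least 7.22-fold lower with valproic acid (adjusted p = 2.09e-05). The third probe, not a member, was far brighter and close between the agents, at 14.31, 14.21, 14.30 and 13.39 across the 4 groups, from growth factors only through lithium and valproic acid to the combination. Rnase2a, an eosinophil-associated ribonuclease, was detected on no lithium array and on 2 valproic acid arrays, and it did not pass the test (adjusted p = 0.145). It passed without growth factors only 2 (adjusted p = 0.0497). Across the list, 20 of 40 tested probes were lower with valproic acid than with lithium and 8 were higher, so that the granule genes were split in direction, with a median difference of -0.56.

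Retnlg, a resistin-like protein secreted by myeloid cells, was among the granule genes that were higher with valproic acid. Its levels were 10.59, 10.48 and 10.81 with growth factors only, 5.40, 4.90 and 5.05 with lithium, 7.46, 7.09 and 6.12 with valproic acid and 4.96, 4.75 and 4.61 with the combination. Lithium alone removed its detection on all arrays, at least 37.4-fold below growth factors only, while valproic acid left an intermediate level on every array. Valproic acid was at least 2.8-fold above lithium (adjusted p = 0.00145, limma).

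The other 3 members that were higher with valproic acid have unlike roles. Cyp4a12a, a fatty acid hydroxylase of the cytochrome P450 family, had levels of 9.15, 8.73 and 8.65 with growth factors only, 5.79, 5.68 and 5.54 with lithium, 8.64, 8.79 and 8.55 with valproic acid and 5.27, 4.66 and 4.87 with the combination. The valproic acid arrays overlapped with the growth-factor-only arrays, lithium was lower on every array, and the combination was at the floor. The difference between the agents was 2.99 (SE 0.21, adjusted p = 2.16e-06).

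Thbs1, which encodes thrombospondin-1, an adhesive matrix glycoprotein, had levels of 8.93, 8.27 and 8.88 with growth factors only, 5.02, 4.94 and 4.84 with lithium, 7.87, 7.24 and 6.26 with valproic acid and 4.87, 5.12 and 4.70 with the combination. It was detected on no lithium array and on every valproic acid array, at least 3.29-fold above lithium (adjusted p = 0.000818, limma). Aldh3a1, an aldehyde dehydrogenase, had the same detection pattern, with means of 7.15 ± 0.63, 4.89 ± 0.09 and 6.32 ± 0.56 with growth factors only, lithium and valproic acid. It was at least 1.89-fold higher with valproic acid (adjusted p = 0.00917, limma), and it did not pass without background correction (adjusted p = 0.0503) or in the authors' deposited log2 values (adjusted p = 0.0667). Prag1 was also detected on all valproic acid and no lithium arrays, but it did not pass the test (adjusted p = 0.297).

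Chemokines, the secreted proteins that attract leukocytes, gave 5 members out of 12 list genes detected with growth factors only: Ccl5, Ccl7, Ccl17, Cxcl2 and Cxcl16. Ccl17, which attracts T cells and is made by dendritic cells and macrophages, had levels of 10.03, 11.67 and 11.57 with growth factors only, 11.20, 10.46 and 10.26 with lithium, 7.16, 8.13 and 7.79 with valproic acid and 4.95, 4.87 and 4.58 with the combination. The lithium arrays fell within the growth-factor-only range, and the valproic acid arrays lay below both. Valproic acid minus lithium was -2.95 (SE 0.41, adjusted p = 0.000426).

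Ccl7, which attracts monocytes, was dim with growth factors only and bright with lithium. Its levels were 6.15, 6.68 and 5.50 with growth factors only, 9.90, 9.04 and 8.95 with lithium, 5.60, 4.93 and 4.92 with valproic acid and 4.62, 4.64 and 4.56 with the combination. Every lithium array exceeded every array of the other groups, and valproic acid minus lithium was -4.14 (SE 0.33, adjusted p = 5.64e-06). Cxcl2, whose start region is printed above, had the same order, with levels of 7.91, 7.88 and 7.99 with growth factors only, 9.67, 8.79 and 8.54 with lithium, 5.52, 6 and 5.17 with valproic acid and 4.70, 4.94 and 4.66 with the combination. All lithium arrays were above all growth-factor-only arrays, and the difference between the agents was -3.43 (SE 0.29, adjusted p = 8.67e-06).

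Ccl5, which attracts T cells and monocytes, had means of 6.70 ± 0.49 with lithium and 5.09 ± 0.20 with valproic acid, a difference of -1.61 (SE 0.30, adjusted p = 0.00308). Cxcl16, a chemokine that also acts as a scavenger receptor, went from 7.05 ± 0.21 with lithium to an undetected level with valproic acid, at least 3.35-fold lower (adjusted p = 1.76e-05, limma). All 5 chemokine members thus passed the test, and 11 of the list's 18 tested probes were lower with valproic acid and 0 higher, with a median difference of -1.07. Members among the receptors for such signals included Fpr1 and P2ry14.
Fpr1, a receptor for bacterial formyl peptides, had means of 6.40 ± 0.18 with lithium and 4.73 ± 0.16 with valproic acid and was detected on no valproic acid array, at least 2.13-fold below lithium (adjusted p = 0.00248, limma). P2ry14, a receptor for nucleotide sugars, had overlapping single-agent arrays and a difference of -0.17 (adjusted p = 0.734). That difference was 0.05 without valproic acid 1 and 0.01 without lithium 2. The other P2ry14 probes detected with growth factors only were detected on every array, one of them at 12.65, 11.43, 11.63 and 9.98 across growth factors only, lithium, valproic acid and the combination.

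Cytokine genes gave 5 members out of 17 detected list genes. Il1b, the gene of the inflammatory cytokine interleukin-1 beta, had levels of 9.62, 9.67 and 9.88 with growth factors only, 10.27, 9.63 and 9.46 with lithium, 6.21, 6.24 and 5.93 with valproic acid and 4.91, 5.20 and 4.88 with the combination. Lithium overlapped with growth factors only, valproic acid left it low but detected on every array, and the difference between the agents was -3.66 (SE 0.22, adjusted p = 6.64e-07). Its chromosomal neighbour Il1a, encoding interleukin-1 alpha, had means of 7.03 ± 0.60, 7.49 ± 0.17 and 4.65 ± 0.11 in the same order, and the last was undetected on every array. Il18, another member of the interleukin-1 family, differed by -1.80 (SE 0.25, adjusted p = 0.000455). Csf1, the growth factor of macrophages, had a mean of 6.64 ± 0.78 with growth factors only and 7.99 ± 0.12 with lithium, and valproic acid minus lithium was -2.49 (SE 0.41, adjusted p = 0.00136).

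Hgf, the hepatocyte growth factor, was near the detection limit and did not pass (difference -0.57, adjusted p = 0.224). On the cytokine list as a whole, 8 of 27 tested probes were lower with valproic acid and 3 were higher, with a median difference of -0.57. Of 20 detected cytokine and growth factor receptor genes, Tnfrsf9 and Tnfrsf1b were members, and 14 of that list's 37 tested probes were lower and 1 higher. Tnfrsf9, a costimulatory receptor of the tumour necrosis factor receptor family, had 2 member probes. The brighter had a difference of -1.69 (SE 0.48, adjusted p = 0.0343), which did not pass without lithium 1 (adjusted p = 0.147), lithium 2 (0.0927) or valproic acid 1 (0.125). It also did not pass without background correction (-0.81, adjusted p = 0.12), in the deposited log2 values (-0.87, adjusted p = 0.117), with median scaling (adjusted p = 0.0662) or with no filter (adjusted p = 0.0819). The dimmer was at least 1.51-fold lower with valproic acid, which did not detect it (adjusted p = 0.00383, limma). Tnfrsf1b did not pass (difference -0.43, adjusted p = 0.447).

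Paired and immunoglobulin-like receptors, in which activating and inhibitory forms share ligands, gave 8 members out of 24 detected list genes. The probe named PIRA11 on the array, for a paired immunoglobulin-like receptor, had levels of 10.60, 11.33 and 11.33 with growth factors only, 10.56, 9.91 and 9.74 with lithium, 8.09, 8.75 and 8.34 with valproic acid and 5.36, 4.69 and 4.83 with the combination. It was detected on every single-agent array, with valproic acid below lithium throughout and a difference of -1.68 (SE 0.29, adjusted p = 0.00211). Sirpb1a, a signal-regulatory protein that pairs with an activating adaptor, had means of 10.51 ± 0.17, 8.42 ± 0.37, 6.51 ± 0.14 and 4.97 ± 0.14 across growth factors only, lithium, valproic acid and the combination at its brighter member probe, and a difference of -1.91 (SE 0.21, adjusted p = 6.9e-05). Its dimmer member probe, detected on 2 lithium arrays and no valproic acid array, did not pass (adjusted p = 0.303). Slamf7, a self-binding receptor of leukocytes, was detected on 2 lithium arrays and no valproic acid array, at least 1.18-fold lower (adjusted p = 0.0137, limma), and did not pass without lithium 3 (adjusted p = 0.0636).

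Member probes of the remaining receptors on that list did not pass the test. Cd300lg had a difference of 0.47, Lilra6 of -0.23 and Pdcd1lg2, a ligand of the inhibitory receptor PD-1, of -0.31, while Treml1 was detected on no lithium array and 1 valproic acid array. A brighter Lilra6 probe, not a member, was detected on every single-agent array. Its means were 11.27, 9.65, 8.13 and 5.32 with growth factors only, lithium, valproic acid and the combination. Lilrb4a had 1 lithium array far above the others, at 8.33, 5.79 and 6.38, and its difference of -1.60 had an adjusted p of 0.059. Without lithium 2 that p was 0.0204, and with the sets as a block it was 0.0339. Another, brighter Lilrb4a probe, not a member, was detected on every array. Its means were 12.62, 12.67, 10.53 and 7.77 with growth factors only, lithium, valproic acid and the combination. The Pira, Lilr and Sirpb1 genes are families of similar copies, so the genes behind these probes are uncertain. Of the list's 38 tested probes, 17 were lower with valproic acid and 0 higher, with a median difference of -0.89.

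C-type lectins, which bind sugars on microbes and dying cells, gave 3 members out of 12 detected list genes, and these lie next to each other on chromosome 6. Clec4b1 had levels of 10.26, 10.53 and 10.68 with growth factors only, 9.84, 9.53 and 9.09 with lithium, 6.13, 6.42 and 6.33 with valproic acid and 4.79, 4.61 and 4.59 with the combination. The groups did not overlap, and valproic acid minus lithium was -3.19 (SE 0.21, adjusted p = 1.6e-06). That is the brighter of its 2 member probes, the dimmer being detected with neither agent. Another Clec4b1 probe, not a member, was detected on every array. Its means were 10.43, 9.88, 6.40 and 6.24 with growth factors only, lithium, valproic acid and the combination. Clec4a1 differed by -2.13 (SE 0.26, adjusted p = 0.000149). The member probe of Clec4a3 was detected on no array of either agent, but another Clec4a3 probe was detected on every array, at 10.27, 8.23, 6.39 and 5.54 across the 4 groups, in the order used throughout. These 3 genes are similar in sequence, which leaves their separate levels uncertain. On the list, 12 of 27 tested probes were lower with valproic acid and 2 higher.

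Other sensing and uptake receptors were each represented by 1 or 2 members. Tlr13, which recognizes bacterial ribosomal RNA in mice, had levels of 10.85, 10.35 and 10.23 with growth factors only, 9.24, 8.94 and 8.92 with lithium, 7.64, 6.87 and 6.36 with valproic acid and 4.73, 5.11 and 4.52 with the combination. It was detected on every single-agent array and differed by -2.08 (SE 0.30, adjusted p = 0.00058). It was the only member among 13 detected genes of the Toll-like receptor list, of which 9 of 21 tested probes were lower with valproic acid and 1 higher. Mertk, a receptor by which macrophages take up dying cells, had a mean of 6.01 ± 0.08 with lithium and was detected on no valproic acid array, at least 1.63-fold lower (adjusted p = 0.00158, limma).

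Itgam, the CD11b integrin chain that also forms complement receptor 3, had levels of 8.22, 8.61 and 8.69 with growth factors only, 6.77, 7.05 and 6.80 with lithium, 6.28, 5.97 and 5.86 with valproic acid and 4.65, 5.08 and 5.08 with the combination. The 4 groups did not overlap, and the difference between the agents was -0.84 (SE 0.21, adjusted p = 0.0173). It did not pass without lithium 2 (adjusted p = 0.0798), valproic acid 2 (0.0612) or valproic acid 3 (0.0635), or without background correction (-0.39, adjusted p = 0.0557). Fcrls, an Fc receptor-like protein of the macrophage lineage, did not pass (adjusted p = 0.886). Cd44, a hyaluronan receptor with 6 probes on the array of which 1 was a member, was detected on no valproic acid array, at least 1.24-fold below lithium, and just past the threshold (adjusted p = 0.0496, limma). It failed it when any of 10 arrays was left out, with an adjusted p of up to 0.17, and without background correction (adjusted p = 0.162) or in the deposited log2 values (0.174). Another Cd44 probe was detected on every array, at 10.73, 10.65, 9.80 and 9.33 across growth factors only, lithium, valproic acid and the combination. Cybb, the catalytic subunit of the phagocyte oxidase, went from 6.55 ± 0.40 with lithium to undetected with valproic acid, at least 2.37-fold lower (adjusted p = 0.000443, limma). Of the 9 tested probes for oxidase subunits, 6 were lower with valproic acid and 0 higher.

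Among genes of class II antigen presentation, Ciita and Cd86 were members out of 13 detected genes. Ciita, the master activator of class II genes, had levels of 9.01, 8.57 and 7.96 with growth factors only, 7.03, 6.78 and 6.93 with lithium, 5.84, 5.09 and 4.75 with valproic acid and 4.46, 4.54 and 5.03 with the combination. The lithium arrays were below the growth-factor-only arrays and above the valproic acid arrays, with a difference of -1.69 (SE 0.31, adjusted p = 0.00284). Cd86, a costimulatory ligand for T cells, had means of 7.38 ± 0.15, 6.45 ± 0.22 and 5.18 ± 0.19 with growth factors only, lithium and valproic acid, and differed by -1.27 (SE 0.18, adjusted p = 0.00054). Brighter Cd86 probes, not members, were detected on every array. The brightest had means of 9.08, 8.46, 7.25 and 5.87 with growth factors only, lithium, valproic acid and the combination. On this list 15 of 18 tested probes were lower with valproic acid than with lithium and 0 were higher, with a median difference of -1.80. The dendritic cell marker sums given above moved in the same order, and 5 of their 10 genes are on both lists.

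Transcription factors of myeloid cells gave 4 members out of 27 detected list genes. Atf3, induced by stress and inflammatory signals, had levels of 8.88, 9.21 and 8.94 with growth factors only, 9.63, 9.13 and 9.07 with lithium, 6.26, 7.23 and 6.25 with valproic acid and 4.79, 4.57 and 5.20 with the combination. Lithium overlapped with growth factors only, and valproic acid was lower than both, with a difference of -2.70 (SE 0.28, adjusted p = 5.01e-05). Klf4, a promoter of monocyte differentiation, differed by -1.59 (SE 0.22, adjusted p = 0.000359), and Relb, a subunit of NF-kappaB, by -1.58 (SE 0.23, adjusted p = 0.000489). The brightest Klf4 probe, not a member, was detected on every array. Its means were 10.47, 10.03, 7.90 and 6.39 with growth factors only, lithium, valproic acid and the combination. Irf4, a regulator of dendritic cell and alternatively activated macrophage genes, had a difference of -0.78 (SE 0.22, adjusted p = 0.0353). That call was lost without any single lithium array (adjusted p from 0.0627 to 0.153), without valproic acid 1 (0.0777) or 3 (0.116) and without combination 3 (0.051). It was also lost without background correction (-0.38, adjusted p = 0.0976), in the deposited log2 values (-0.40, adjusted p = 0.0855), with median scaling (adjusted p = 0.0601) and in the trended robust fit (0.0532).

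Tcf7l2, a DNA-binding partner of beta-catenin, was the 1 member among 8 detected genes of the beta-catenin list. Its levels were 5.55, 7.40 and 7.76 with growth factors only, 5.92, 5.60 and 5.70 with lithium, 5.36, 5.30 and 4.82 with valproic acid and 4.78, 4.70 and 4.81 with the combination. Growth factors only 1 was well below the other growth-factor-only arrays and below every lithium array. Valproic acid lay below lithium on every array, but the difference of -0.58 did not pass (adjusted p = 0.417). Within the set of 8 arrays, which leaves out growth factors only 1 and valproic acid 1, it was -0.68 (adjusted p = 0.0271). A brighter Tcf7l2 probe, not a member, was detected on every array. Its means were 9.80, 7.94, 7.36 and 6.27 with growth factors only, lithium, valproic acid and the combination. Of the 15 tested probes of the beta-catenin list, 0 were lower with valproic acid and 4 higher.

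Lysosomal proteins gave 2 members, Ctsk and Gpnmb, out of 24 detected list genes. Ctsk, the collagen-degrading cathepsin K, had levels of 11.91, 12.13 and 11.85 with growth factors only, 10.74, 10.20 and 10.24 with lithium, 4.74, 5.82 and 5.37 with valproic acid and 4.89, 4.89 and 4.75 with the combination. Lithium was below growth factors only on every array, and valproic acid left it near the combination level, with a difference of -5.08 (SE 0.26, adjusted p = 2.13e-07). Gpnmb, a transmembrane glycoprotein of phagocytes, had levels of 11.27, 11.43 and 11.15 with growth factors only, 11.15, 10.71 and 10.89 with lithium, 7.05, 7.39 and 6.89 with valproic acid and 5.31, 4.64 and 4.99 with the combination. Lithium came close to growth factors only, and valproic acid was lower by -3.81 (SE 0.22, adjusted p = 4.64e-07). Of its 4 probes on the array, 3 were members. On the list, 20 of 42 tested probes were lower with valproic acid and 0 higher.

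Among genes of arginine, ion and lipid handling, Arg1 had a pattern of its own. Arg1, the arginase of alternatively activated macrophages, had levels of 10.56, 11.07 and 11.42 with growth factors only, 6.48, 5.37 and 5.41 with lithium, 4.55, 4.81 and 4.44 with valproic acid and 4.89, 4.57 and 4.48 with the combination. Lithium alone took it from the level of the brightest members to one detected on 2 of 3 arrays, and valproic acid alone removed detection on all arrays, at least 52.5-fold below growth factors only. Valproic acid was at least 1.37-fold below lithium (adjusted p = 0.0237, limma), and this did not pass without lithium 1 (adjusted p = 0.0958), valproic acid 1 (0.0589) or valproic acid 3 (0.0725). It also did not pass without background correction (adjusted p = 0.0887) or in the deposited log2 values (0.0899).

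Slc11a1, the metal transporter of phagosomes, had 3 member probes of 4 on the array. The brightest member had levels of 9.10, 10.12 and 9.72 with growth factors only, 9.85, 9.39 and 9.39 with lithium, 4.67, 5.12 and 5.12 with valproic acid and 4.98, 4.77 and 4.69 with the combination. Lithium lay within the growth-factor-only range, and no valproic acid array detected the probe, at least 18.9-fold below lithium (adjusted p = 4.3e-07, limma). The other member probes were at least 5.31-fold and 3.6-fold lower with valproic acid (adjusted p = 8.63e-06 and 2.7e-05, limma). The fourth probe disagreed: it was brighter than these and detected on every array, at 11.76, 12.87, 11.65 and 12.34 across the 4 groups, in the order used throughout, so Slc11a1 RNA was detected in every group. Ch25h, which makes 25-hydroxycholesterol, had means of 10.11 ± 0.35 and 7.52 ± 0.27 with growth factors only and lithium and was undetected with valproic acid, at least 4.64-fold below lithium (adjusted p = 1.42e-05, limma). Fabp3, a fatty acid binding protein, was higher with lithium than with growth factors only, at 8.09, 8.13 and 8 against 7.08, 6.59 and 6.47. It was undetected with valproic acid, at least 6.81-fold below lithium (adjusted p = 6.64e-07, limma).

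Nr1h3, the liver X receptor alpha that activates cholesterol efflux genes, had overlapping single-agent arrays and did not pass (difference -0.98, adjusted p = 0.117). It passed with the sets as a block (-1.27, adjusted p = 0.00127), in the set of 8 alone (-1.45, adjusted p = 0.000764) and without valproic acid 1 (-1.45, adjusted p = 0.0101). Fabp4, a related fatty acid binding protein, was detected on no array of either agent. Of the 18 detected genes of the lipid list, these 4 were members, and 6 of its 29 tested probes were lower with valproic acid and 0 higher. Ptger2, a prostaglandin E2 receptor and the only member of 12 detected eicosanoid genes, did not pass (adjusted p = 0.294).

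Large differences outside these lists were at Fstl1, a secreted glycoprotein, and Tppp3, a tubulin-binding protein. Fstl1 had levels of 9.03, 9.58 and 9.05 with growth factors only, 10.15, 9.94 and 9.79 with lithium, 4.92, 5.44 and 5.13 with valproic acid and 5.13, 4.73 and 5.13 with the combination. Every lithium array exceeded every growth-factor-only array, and valproic acid minus lithium was -4.80 (SE 0.22, adjusted p = 1.34e-07). Tppp3 had levels of 6.90, 7.39 and 7.72 with growth factors only, 9.96, 9.28 and 9.38 with lithium, 4.84, 5.11 and 4.76 with valproic acid and 5.23, 4.84 and 4.88 with the combination. It too was higher with lithium than with growth factors only on every array, and valproic acid was at least 18.8-fold below lithium (adjusted p = 2.8e-07, limma). Cfb, the complement factor B, had means of 6.46 ± 0.90 with growth factors only and 8.53 ± 0.16 with lithium and was undetected with valproic acid, at least 9.34-fold below lithium (adjusted p = 1.26e-05, limma).

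Anpep, the CD13 aminopeptidase of myeloid cells, was another of the 51 members kept by lithium and lost with valproic acid. Its levels were 9.20, 9.39 and 8.77 with growth factors only, 9.46, 8.41 and 8.40 with lithium, 4.97, 4.92 and 4.83 with valproic acid and 4.68, 4.81 and 4.81 with the combination. Valproic acid was at least 10.9-fold below lithium (adjusted p = 2.31e-06, limma). Of the same pattern, Fblim1, an actin-linked adaptor of cell adhesions, was at least 6.99-fold lower (adjusted p = 4.65e-05, limma) and Ahnak2, a large scaffold protein, at least 3.35-fold (adjusted p = 1.74e-05, limma). Among the members detected throughout under both single agents, Dpep2, a dipeptidase that cleaves leukotriene D4, had levels of 11.36, 11.15 and 11.35 with growth factors only, 9.30, 8.51 and 8.37 with lithium, 7.51, 7.07 and 6.55 with valproic acid and 5.11, 4.68 and 4.83 with the combination and differed by -1.68 (SE 0.28, adjusted p = 0.00159). Sdc3, a heparan sulfate proteoglycan, had means of 10.90 ± 0.28, 8.13 ± 0.35 and 6.31 ± 0.20 with growth factors only, lithium and valproic acid, and differed by -1.82 (SE 0.23, adjusted p = 0.000183).

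Members lost with either agent alone included kallikrein genes. Klk1b1, a serine protease of the kallikrein-1 family, had levels of 8.35, 7.57 and 8.52 with growth factors only, 4.78, 4.56 and 4.65 with lithium, 4.48, 4.61 and 4.67 with valproic acid and 4.58, 4.61 and 4.47 with the combination. Only the growth-factor-only arrays detected it, at least 6.67-fold above lithium and at least 7.15-fold above valproic acid. Klk1b8 had the same pattern, with means of 7.96 ± 0.62, 4.88 ± 0.12 and 4.96 ± 0.10. Trim29, a tripartite motif protein, went from 6.80 ± 0.18 with growth factors only to 4.74 ± 0.04 and 4.80 ± 0.05, Car5b, a mitochondrial carbonic anhydrase, from 6.79 ± 0.39 to 5.19 ± 0.13 and 4.98 ± 0.09, and Rxra, the retinoid X receptor alpha, from 6.65 ± 0.66 to 4.98 ± 0.20 and 4.77 ± 0.17. Since neither agent was detected at these 5 probes, nothing is read from a comparison of the agents there. Further probes of Trim29 and Car5b, not members, were each detected on 1 lithium and 1 valproic acid array. They were also detected on 1 and 2 combination arrays in turn. The other member probe of Car5b was detected on 1 valproic acid array.

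Klk1b1 and Klk1b8 belong to a row of kallikrein genes on chromosome 7 in which Klk1b11, Klk1b22 and Klk1b27 were members too, named here after their values were seen. All 5 genes of that span that were detected with growth factors only were members. The kallikrein-1 genes are near-identical copies, so the probes may share targets and are not independent. In all, 36 of 211 member genes with a RefSeq position lay in 15 clusters with at most 5 protein-coding genes between members. How many genes would lie so close in other sets of this size was not counted, so nothing is read from that number. Stfa2, Stfa3 and Cd86 lay together on chromosome 16 and were all 3 of the detected genes of their span. Mmp8, Mmp12 and Mmp13 lay together on chromosome 9, where Mmp1a was detected and not a member. Il1a and Il1b were the 2 genes of a span on chromosome 2.

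**Figure D5:**
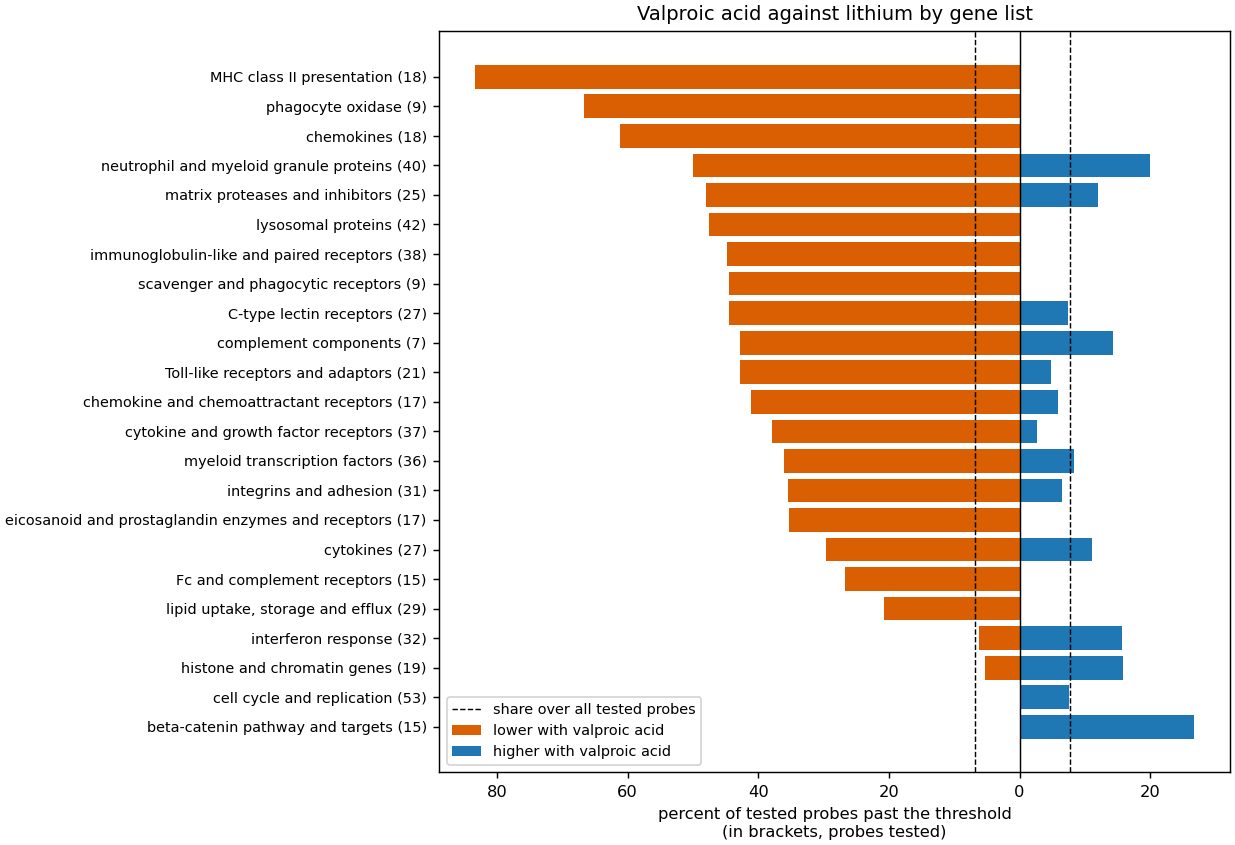
Percent of each gene list's tested probes that were lower (left) or higher (right) with valproic acid than with lithium at an adjusted p under 0.05 (limma), members and non-members together, with the number of tested probes in brackets. Dashed lines mark the shares over all tested probes, 6.79% lower and 7.69% higher; class II presentation reaches furthest left, with 15 of 18 probes, and cell cycle and beta-catenin genes have 0 lower.

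Some gene lists held few or no members. Of all 7315 genes detected with growth factors only, 221 were members. That share leaves few members in lists of this size, so nothing is read from these member counts. None of 18 detected interferon response genes and none of 11 detected histone and chromatin genes were members. On those lists 2 of 32 and 1 of 19 tested probes were lower with valproic acid than with lithium, and 5 and 3 were higher. Cdkn2b, an inhibitor of cyclin-dependent kinases, was the 1 member among 30 detected cell cycle and replication genes. Its growth-factor-only mean was 6.20 ± 0.29 and it did not pass (adjusted p = 0.327). Of the 53 tested probes on that list, 0 were lower and 4 higher.

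Where a list above had 0 probes called in a direction, the count at an unadjusted p under 0.05 (limma) was 0 higher for the chemokine, oxidase and lysosomal lists, 1 for the paired receptors and 2 each for class II presentation and lipid handling. It was 1 lower for the beta-catenin list and 0 lower for the cell cycle list.

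The lists not yet counted had these calls. For the chemokine receptor list 7 of 17 tested probes were lower with valproic acid and 1 higher, and for myeloid transcription factors 13 of 36 were lower and 3 higher. Scavenger and phagocytic receptors had 2 members (Cxcl16 and Mertk) out of 7 detected genes and 4 of 9 probes lower, and Fc and complement receptors had 2 (Fcrls and Itgam) out of 10 and 4 of 15 lower, with 0 higher in either list, also at an unadjusted p under 0.05 (limma). Integrins and adhesion genes had 2 members (Cd44 and Itgam) out of 17 and 11 of 31 probes lower and 2 higher. Complement components had 1 member (Cfb) out of 3 and 3 of 7 probes lower and 1 higher, and 6 of 17 probes for eicosanoid genes were lower and 0 higher, with 0 higher at an unadjusted p under 0.05 (limma) as well.

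Genes with several probes were not always lost at each of them. Of the 127 further probes that 80 member genes have on the array, 55 were detected on all growth-factor-only arrays. A probe of these 55 that no combination array detected would itself be a member, so their detection on at least 1 combination array follows from the rule, and 35 were detected on all 3. The other 72 were not detected on all growth-factor-only arrays. Some bright further probes were also far lower with the combination: from growth factors only to the combination the mean went from 14.29 to 8.38 at Gpnmb, 14.44 to 6.85 at Stfa2, 11.45 to 5.89 at Olfm1 and 12.62 to 7.77 at Lilrb4a, while those of Slc11a1 and Lyz1 given above stayed bright. These examples were chosen after their values were seen. In 16 genes several probes were members, 35 probes in all. Whether probes of 1 gene differ by brightness or by the transcript they read was not tested.

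The detection limit set the edge of the membership. The members nearest to it had a lowest combination p-value of 0.0501 (Iqcf3) and 0.0514 (Actr2 and Uimc1), with growth-factor-only means of 5.49 ± 0.11, 5.74 ± 0.29 and 5.60 ± 0.11. Probes just outside it included Kazald1, with a combination p-value of 0.0489, and Gnb4, with 0.0476. Their growth-factor-only means were 7.00 ± 0.67 and 6.05 ± 0.32, and their combination means 5.06 ± 0.37 and 5.17 ± 0.20. In all, 207 probes detected on all growth-factor-only arrays missed membership because a single combination array detected them.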

How the data were processed

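Per the file headers and labels, 12 samples were read on MouseRef-8 version 2 beadchips and exported with GenomeStudio 1.1.1 without normalization. The authors deposited linear bead intensities that had not been brought to a common scale, each beside its detection p-value. The sources used here do not say whether background was removed from them. A second table, which the authors deposited on a log2 scale, served as an alternative.

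Gene names came from that profile's target names. Each intensity-table probe was paired with the profile row that held the same intensities on the 12 shared arrays, within 0.051 units, since the profile is rounded. All 25697 probes were paired, each with 1 row. The profile's array columns carry no sample label and served only for this pairing and for the chip of each array, and 180 of its 192 per-sample columns were not used. Of the members, 207 matched a RefSeq symbol, 23 a synonym, and 10 keep the array's name.

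Intensities were background corrected (normexp from detection p-values, offset 16) and quantile normalized on the log2 scale with neqc of limma 3.58.1 in R 4.3.3. The 12907 probes detected on at least 3 of 12 arrays were fitted with 1 mean per group (8 residual degrees of freedom, eBayes, two-sided tests), with Benjamini-Hochberg adjustment over all of them. The script was tested on simulated data. No array pair held identical values. The number of arrays limits the precision.

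Named genes are the 12 brightest members, the 6 brightest in each of 4 detection patterns, the 5 largest differences between the single agents in each direction, every member on a gene list, and the probes nearest the detection limit. The members and gene lists were chosen with earlier results of these data known. Some genes that this rule names are not reported here.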

Additional observations from a re-analysis of the deposited data

How the results depend on the processing

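The counts of members lower and higher with valproic acid than with lithium stayed within 1.5 times of 118 and 4 under every setting run: no background correction, median scaling, the deposited log2 values, no filter or a filter on single-agent detection, a trended robust fit, the single-agent arrays alone, the array sets as a block or the larger set alone, and leaving out each array. Leaving out 1 array gave 100 to 123 lower and 4 to 5 higher. Replicate numbers did not pair the cultures: deviations of same-numbered valproic acid and lithium arrays correlated at -0.141, -0.133 and -0.107 in the intensity table and 0.175, -0.18 and 0.0419 in the log2 table, where 5 of 12 arrays carry another number. With the replicate number as a block 112 members were lower and 4 higher, and with the log2 table's numbers and values 113 and 4.

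The number of members depended on the detection limit and on how many arrays had to meet it. It was 157 with p under 0.01 on the growth-factor-only arrays, 248 with 0.01 on both sides, 290 to 331 without 1 array, 654 in the larger set and 1035 in the smaller set, where fewer arrays must agree. At 0.01, 170 members were detected on no valproic acid array, 21 on every one and 89 on no lithium array. Leaving out 1 array gave 109 to 137, 47 to 60 and 52 to 58 for these counts.

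Median changes from growth factors only were smaller without background correction (-0.80 for valproic acid, -0.37 for lithium and -0.94 for the combination), in the deposited log2 values (-0.82, -0.37 and -0.97) and, for valproic acid and the combination, with median scaling (-1.66 and -1.95), and the combination's was -2.10 without combination 3; the cause was not tested. Of 51 named members past the threshold none changed direction, and 51 of their 1173 alternative values lost the call, at Cd44, Irf4, Tnfrsf9, Arg1, Itgam, Aldh3a1 and Slamf7. Of 26 named members not past it, 4 changed sign: Mmp8 (0.11 with the sets as a block, 0.09 in the larger set, 0.09 without valproic acid 1; -0.24 to 0.27 over all arrays left out), P2ry14 (0.05 in the larger set, 0.01 without lithium 2, 0.05 without valproic acid 1), Pdcd1lg2 (0.00 in the larger set and without valproic acid 1, from -0.57) and Fcrls (-0.04 without valproic acid 2, -0.02 without valproic acid 3, up to 0.24). Signals near background limit the dimmer members.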
